A study of Mus musculus with 58 samples.

Results

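Atf4, the genes it is known to switch on during amino acid shortage, and the enzymes that make serine and carry one-carbon units were followed in mouse hematopoietic stem cells (HSCs) under caloric restriction (CR), refeeding and receptor knockdown. The group held 10 genes (Atf4, Asns, Trib3, Sesn2, Ddit4, Psat1, Phgdh, Shmt2, Mthfd2 and Slc7a11) of the 55376 genes in the count files. They were matched by symbol and all 10 passed the filter on low counts in every comparison. The genes were selected on earlier results for the same RNA counts, so the levels, fold changes and counts of calls over them describe the data and carry no test of the list.

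HSCs came from the bone marrow of wild-type male C57BL/6 mice and were sorted as LSK cells (no lineage markers, with Sca-1 and c-Kit) that carried CD150 but neither CD34 nor Flk2. Old mice aged 24 to 26 months were fed freely (OAL, n = 4), had been kept on 40% CR since 3 to 4 months of age (OCR, n = 4), or were returned to free feeding for 4 weeks after lifelong CR (OCRRF, n = 2). Young mice aged 3 to 4 months were fed freely (YAL, n = 4), were restricted for 4 weeks by 20% in the first week and 40% after it (YCR, n = 4), or were then refed for 4 weeks (YCRRF, n = 4). In a second experiment, HSCs of old mice were transduced with hairpins and transplanted into irradiated female recipients, and donor LSK CD48-, CD150+ cells were sorted again. One arm held an shRNA against Kdr with a GFP marker (n = 4) and its scramble control (n = 2), and the other held shRNAs against both Kdr and Bmpr1a, with 1 of 2 Bmpr1a hairpins in each library (n = 4), and its own scramble control (n = 2).

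ATF4 is the transcription factor at the end of the integrated stress response. Kinases that sense missing amino acids, unfolded protein, heme shortage or double-stranded RNA phosphorylate eIF2, which lowers general translation while translation of the Atf4 mRNA rises. The mRNA level of Atf4 therefore need not follow its protein, which was not measured here. ATF4 binds C/EBP-ATF response elements and turns on amino acid synthesis, transport and tRNA charging together with stress regulators, and serine made through Phgdh and Psat1 feeds the mitochondrial one-carbon enzymes Shmt2 and Mthfd2, which supply formate for nucleotide synthesis. HSCs are known for a low rate of protein synthesis and for sensitivity to amino acid supply.

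The letters of the C/EBP-ATF response element (TGATGNAA, or TTNCATCA on the other strand) were looked for in the 250 bases before each RefSeq start, since this is the element through which ATF4 is known to act. They occurred in 2 of the 11 windows of the members (Psat1 has 2 starts), those of Asns and Slc7a11, and in 3.45% of the 32851 windows of all genes. The stretches with the match, from RefSeq (GRCm38.p6, the assembly of mm10), are printed 5′ to 3′ on the strand of the gene with the matched letters in capitals.
Asns (chr6:7693214-7693243, minus strand): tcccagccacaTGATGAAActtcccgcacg
Slc7a11, first match (chr3:50443661-50443690, minus strand): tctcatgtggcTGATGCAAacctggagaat
Slc7a11, second match (chr3:50443642-50443671, minus strand): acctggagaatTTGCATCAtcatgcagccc
The Asns match begins 23 bases before the RefSeq start and lies within an exon annotated by GENCODE M21. Those of Slc7a11 begin 66 and 47 bases before the start, lie on opposite strands and lie outside the annotated exons. Absence of the letters from the other windows says nothing of elements elsewhere, such as in introns or in the transcribed part.

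RNA libraries held 11102898 to 36579392 counts on genes in the diet experiment and 35657999 to 44780217 in the transplanted one. The 10 markers of the HSC gate summed to 3609 to 5134 CPM (TMM-normalized counts scaled to a common library size) in every diet library, and Cd48, which the sort of transplanted HSCs excludes, lay at a group mean of 0.422 to 1.95 CPM in the diet groups and 4.74 to 8.91 CPM in the transplanted ones. Cd34, excluded by the sort of the diet libraries, was present as mRNA at group means of 108 to 182 CPM. Olfactory and vomeronasal receptor genes, read here as library background, took 553 to 788 CPM in OAL, 587 to 1313 in OCR, 1213 to 1553 in OCRRF and 69.2 to 499 in young libraries. Old and young groups thus differ in background as well as in age, and OCRRF differs from OAL in background as well as in diet. Fewer expressing cells and less RNA per cell cannot be told apart in such bulk samples.

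Per kilobase of exon, Phgdh, which makes the first committed step of serine synthesis, was the most abundant member in OAL at 58.9 CPM per kb (56.2 to 63.2). Shmt2, the mitochondrial enzyme that splits serine into glycine and a one-carbon unit, stood at 32.1 (29.1 to 34.6) and Atf4 at 28.3 (26.8 to 30.3), and the ranges of these neighbours overlapped. Trib3, a pseudokinase that restrains ATF4 and AKT, followed at 20.5 CPM per kb (18.6 to 22.9), Asns, which makes asparagine, at 16.7 (15.0 to 17.8) and Psat1, the second enzyme of serine synthesis, at 14.4 (14.0 to 15.1), the last of these overlapping with its neighbour. Ddit4 (8.52) and Sesn2 (7.90), both inhibitors of mTORC1 signalling, also overlapped. Mthfd2, which oxidizes the mitochondrial one-carbon unit, and Slc7a11, the cystine transporter, were the lowest at 1.35 and 0.224 CPM per kb. Slc7a11 was covered by as few as 14 counts and Mthfd2 by as few as 8 in a young library, so their folds in young mice are imprecise.

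**Figure D1:**
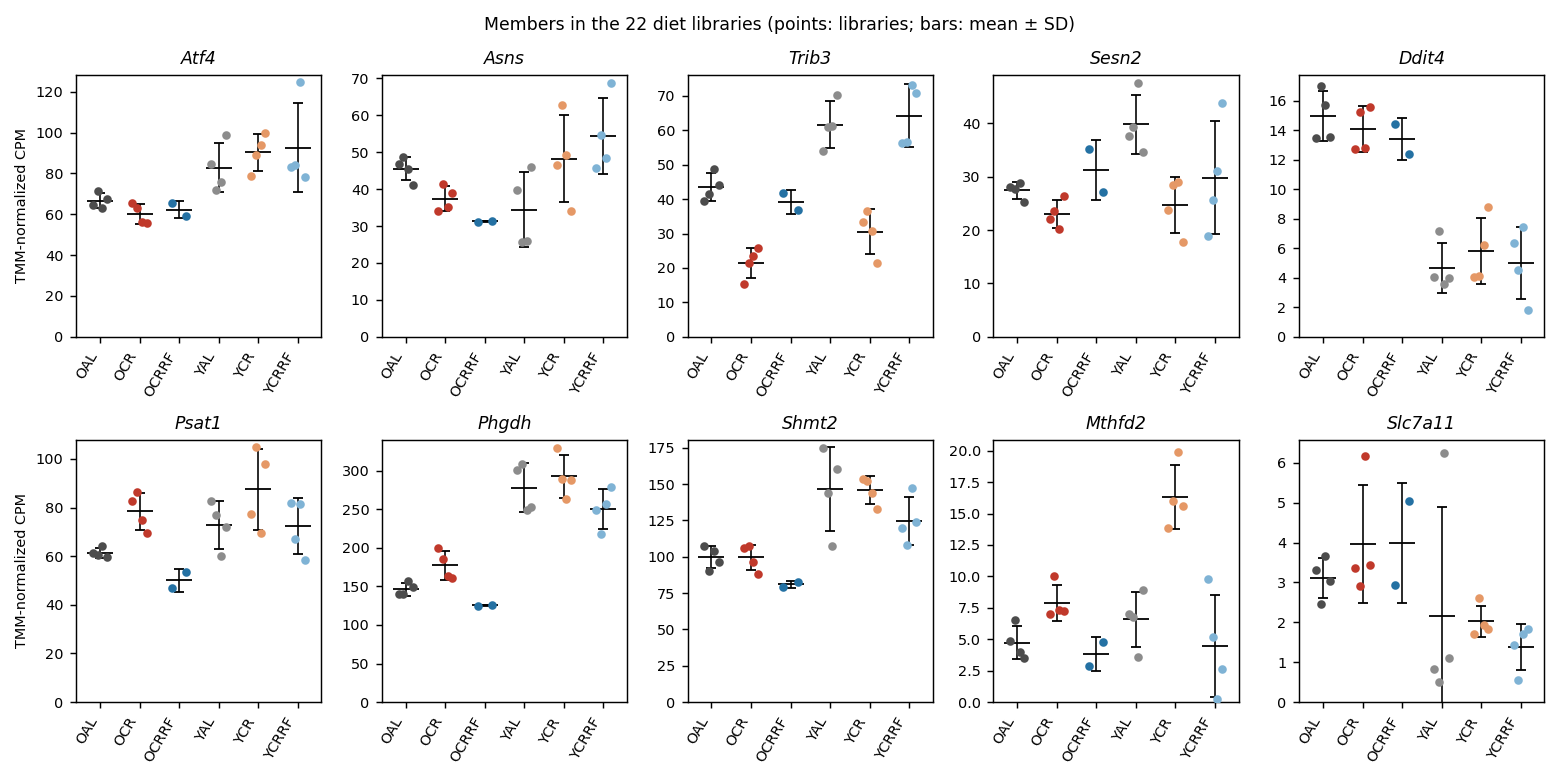
TMM-normalized CPM (vertical axes, from 0) of each member in the 22 diet libraries by diet group. Points are libraries and black bars the mean ± SD. Trib3 is low in OCR and YCR, Mthfd2 is high in YCR, and Ddit4 lies above 12 CPM in every old library and below 9 CPM in every young one.

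In lifelong CR Trib3 was lower and 3 serine and one-carbon enzymes were higher. In OCR against OAL, 4 of 10 members were called at a Benjamini-Hochberg adjusted p under 0.05 in edgeR's quasi-likelihood test with a fold change over 1.2. Trib3 fell, and Psat1, Phgdh and Mthfd2 rose. Over all genes 5.57% were called in this comparison, and the median log2 fold change of the members was -0.03 beside 0.02 for all genes. TMM from genes of at least 5 CPM moved the split of all calls from 689 higher and 822 lower to 894 and 697, with the same 4 members called.

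Trib3 stood at 39.6, 41.4, 48.8 and 44.2 CPM in OAL and at 15.5, 21.6, 23.4 and 25.7 CPM in OCR. Every OCR library lay below every OAL library, an arrangement without overlap that 11.4% of all tested genes showed in 1 direction or the other. Its log2 fold change was -0.996 ± 0.12 (SE, adjusted p = 1.48e-06), a 1.99-fold fall, and it was called under all 16 alternative settings, from -1.09 to -0.87. In the serine branch, Psat1 read 61.3, 60.6, 64.4 and 59.5 CPM in OAL and 82.8, 86.6, 75.0 and 69.6 CPM in OCR. The groups did not overlap, and the log2 fold change of 0.37 ± 0.09 (adjusted p = 0.0066) was called under all 16 alternatives too.

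Phgdh read 140, 140, 157 and 149 CPM in OAL against 200, 186, 163 and 161 CPM in OCR. The lowest OCR library was just above the highest OAL library, and the change was small, at 0.29 ± 0.08 (adjusted p = 0.035). Its call was kept in 10 of 16 alternatives and was lost with the replicate number as a block (adjusted p = 0.0636) and without OCR replicate 1 or 2 or OAL replicate 1, 2 or 4 (adjusted p from 0.0576 to 0.186). Mthfd2 rose from 4.88, 6.49, 3.95 and 3.53 CPM in OAL to 7.00, 10.1, 7.36 and 7.23 CPM in OCR. Its log2 fold change was 0.76 ± 0.19 (adjusted p = 0.011), and the call was lost without OCR replicate 2 or OAL replicate 3 or 4 (adjusted p from 0.0567 to 0.0829).

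The mRNA of Atf4 itself was 64.5, 71.5, 63.1 and 67.5 CPM in OAL and 65.4, 63.3, 56.2 and 55.8 CPM in OCR. The groups overlapped, and the log2 fold change of -0.13 ± 0.09 (adjusted p = 0.51) did not pass. Asns averaged 45.6 ± 3.2 CPM (SD, n = 4) in OAL and 37.4 ± 3.4 CPM in OCR, with a log2 fold change of -0.27 ± 0.10 (adjusted p = 0.12). Sesn2 was at -0.23 ± 0.11 (adjusted p = 0.28), Ddit4 at -0.07 ± 0.13 (adjusted p = 0.88), Shmt2 at 0.01 ± 0.09 (adjusted p = 0.96) and Slc7a11 at 0.36 ± 0.23 (adjusted p = 0.50). None of these 6 was called under any alternative.

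Proliferation markers moved in the same libraries. All 18 of them rose in OCR against OAL, with a median log2 fold change of 1.46, and their sum ran from 1072 to 1183 CPM in OAL and from 1831 to 2572 CPM in OCR. Their part in the rise of Psat1, Phgdh and Mthfd2 was not tested. Of the 10 HSC markers 4 were called lower and none higher, with a median log2 fold change of -0.22. Among them were Fgd5 (-0.50 ± 0.09), Ly6a (-0.47 ± 0.08) and Procr (-0.46 ± 0.08). Kit averaged 1588 CPM in OAL and 1661 CPM in OCR, and Slamf1 99.9 and 107 CPM, so these went the other way. Of the 8 B and plasma cell markers only 2 were called, Igkc (-7.35 ± 1.15) and Jchain (-5.03 ± 0.81), both lower. The median log2 fold change of that list was -0.10. The sum of the 8 genes was 42.1 to 269 CPM in OAL and 40.0 to 48.3 CPM in OCR, and these ranges overlapped. Of the 8 erythroid markers 4 were called lower and none higher, among them Hbb-bs (-2.22 ± 0.35, adjusted p = 8.6e-05). Their sum was 37.5 to 236 CPM in OAL and 36.6 to 69.9 CPM in OCR, and these ranges overlapped. The 8 T and NK cell markers summed to 59.1 to 69.9 CPM in OAL and 41.3 to 54.1 CPM in OCR, without overlap. Of the 5 of them that were tested, 1 was called higher and 1 lower. The sums of the neutrophil and monocyte markers and of the megakaryocyte markers overlapped. The part of these markers in the change of Trib3 was not tested.

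The same genes were examined after short-term CR in young mice. In YCR against YAL only Trib3 was called among the 10 members, and 0.364% of all genes were called. Trib3 read 53.9, 61.0, 61.3 and 70.4 CPM in YAL and 33.4, 36.4, 30.8 and 21.3 CPM in YCR. The groups did not overlap, and the log2 fold change was -1.004 ± 0.18 (adjusted p = 0.047), beside -0.996 in old mice. The call is at the limit: it was lost when any 1 of the 8 libraries was left out (adjusted p from 0.0765 to 0.166), with the replicate block (adjusted p = 0.182) and with library sizes summed after the filter (adjusted p = 0.0501), while the log2 fold change stayed between -1.10 and -0.86.

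Mthfd2 had the largest difference of the members in young mice but did not pass. It read 6.97, 6.74, 3.62 and 8.94 CPM in YAL and 13.9, 16.0, 19.9 and 15.6 CPM in YCR. Every YCR library lay above every YAL library (6.32% of all genes did not overlap in this comparison), with a log2 fold change of 1.33 ± 0.30 (adjusted p = 0.12). DESeq2 (adjusted p = 0.000748) and the edgeR fit without a filter (adjusted p = 0.0185) called it. Sesn2, a leucine sensor that inhibits mTORC1, was at -0.67 ± 0.19 (adjusted p = 0.24) and was called by DESeq2 (adjusted p = 0.0245). Asns was at 0.50 ± 0.24 (adjusted p = 0.58), Psat1 at 0.28 ± 0.16 (adjusted p = 0.66), and Atf4 (0.14), Phgdh (0.09), Ddit4 (0.33), Shmt2 (0.00) and Slc7a11 (-0.09) lay within about 1 SE of 0. The proliferation markers also separated here, with a sum of 1751 to 2018 CPM in YAL and 2188 to 2317 CPM in YCR, a median log2 fold change of 0.42 and 1 of 18 called (Top2a), and their part in the values of Mthfd2 and Trib3 was not tested.

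The response to CR was compared between ages in 1 model. For Trib3 the old response minus the young one was 0.01 ± 0.23 on the log2 scale (adjusted p = 1.00). For Mthfd2 it was -0.57 ± 0.38 (adjusted p = 0.76) and for Asns -0.77 ± 0.26 (adjusted p = 0.39). None of the 10 members passed, at 0.0318% of all genes called, and Asns was the 1 member under an unadjusted p of 0.05. A p that misses the threshold does not show that the responses are alike.

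**Figure D2:**
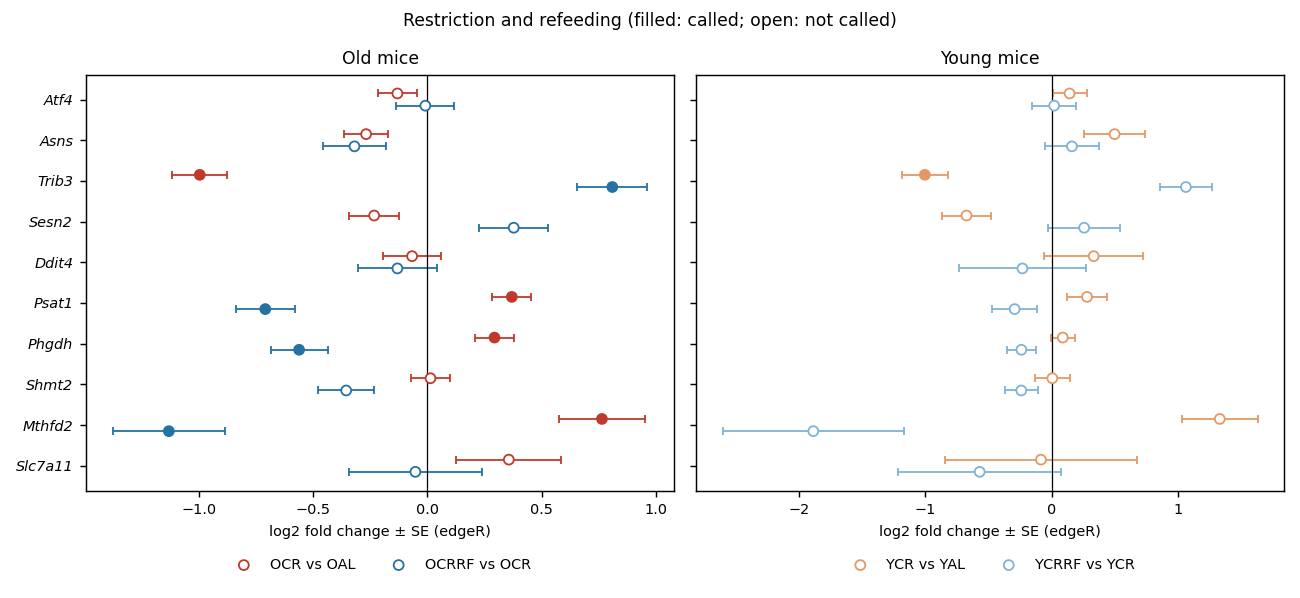
Log2 fold change ± SE (horizontal axes, edgeR) of each member under restriction and on refeeding, in old mice on the left and young mice on the right. Filled circles were called and open circles were not. In old mice Trib3, Psat1, Phgdh and Mthfd2 are called in both comparisons with opposite signs, and both comparisons share the OCR libraries.

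After refeeding of old mice 4 of 10 members were called. In OCRRF against OCR, Trib3 rose and Psat1, Phgdh and Mthfd2 fell, with 3.41% of all genes called. The OCR libraries serve in both comparisons, and no overlap between the comparisons is drawn. Trib3 read 41.7 and 36.8 CPM in OCRRF, above all 4 OCR libraries (28.3% of all genes did not overlap between these groups), with a log2 fold change of 0.81 ± 0.15 (adjusted p = 0.00076).

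Psat1 read 46.8 and 53.4 CPM in OCRRF, below every OCR and every OAL library. Its log2 fold change against OCR was -0.71 ± 0.13 (adjusted p = 0.00048). Phgdh, at 125 and 126 CPM, was at -0.56 ± 0.12 (adjusted p = 0.0050). Mthfd2, at 2.84 and 4.75 CPM, was at -1.13 ± 0.25 (adjusted p = 0.0039), a 2.19-fold fall. Shmt2 (-0.36 ± 0.12, adjusted p = 0.11), Asns (-0.32 ± 0.14, adjusted p = 0.22) and Sesn2 (0.38 ± 0.15, adjusted p = 0.18) were not called, and Atf4 was at -0.01 ± 0.13 (adjusted p = 0.98).

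OCRRF has 2 libraries, and leaving out 1 leaves an arm of 1 library, which is assumed to vary like the OCR libraries. Without OCRRF replicate 1 none of the 10 members was called (adjusted p of Trib3 0.0903, Psat1 0.0834, Phgdh 0.145 and Mthfd2 0.278), and without OCRRF replicate 2 the call of Phgdh was lost (adjusted p = 0.134). Calls over all genes fell from 1110 to 352 and 522 in these fits. The values without OCRRF replicate 1 kept their direction, at 0.68 for Trib3, -0.65 for Psat1, -0.59 for Phgdh and -0.84 for Mthfd2. TMM factors from genes of at least 5 CPM moved the split of all calls from 226 higher and 884 lower to 341 and 575, and shifted the median over the tested genes from 0.11 to 0.24 (log2). Under that scaling the 4 members kept their calls, and Sesn2 was also called (0.51, adjusted p = 0.0399). All 18 proliferation markers fell in this comparison, with a median of -1.59 and a sum of 948 to 995 CPM in OCRRF. Their part in the fall of the serine genes was not tested.

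Refed HSCs were also set against those of freely fed old mice. In OCRRF against OAL, Asns, Psat1 and Shmt2 fell, with 4.14% of all genes called, and this comparison shares libraries with the other two. The background itself was unstable: the 1316 calls over all genes became 38 to 386 when any 1 library was left out and 3215 with DESeq2 size factors. Asns read 31.1 and 31.4 CPM in OCRRF against 46.9, 48.7, 45.5 and 41.2 CPM in OAL, without overlap, as held for 38.6% of all genes here. Its log2 fold change was -0.56 ± 0.10 (adjusted p = 0.013). Shmt2 was at -0.31 ± 0.08 (adjusted p = 0.043) and Psat1 at -0.31 ± 0.09 (adjusted p = 0.0496), both close to the threshold. Trib3 was at -0.16 ± 0.10 (adjusted p = 0.31) and Mthfd2 at -0.33 ± 0.27 (adjusted p = 0.44). Without OCRRF replicate 1 or 2, where the lone refed library is assumed to vary like the OAL libraries, no member was called, and without OAL replicate 1, 2, 3 or 4 only 1 member, Asns, was called. Scaling mattered here: TMM from genes of at least 5 CPM turned the split of all calls from 528 higher and 788 lower to 754 and 54, moved the median of all genes from 0.12 to 0.26 and left 1 member called, Asns at -0.41. Psat1 (-0.16) and Shmt2 (-0.17) kept their sign but not their call.

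Refeeding of young mice gave no called member. In YCRRF against YCR 0.0102% of all genes were called, which is 2 genes at an adjusted p and 1420 at an unadjusted p under 0.05. Trib3 read 56.3, 56.6, 73.2 and 70.9 CPM in YCRRF, above every YCR library, with a log2 fold change of 1.06 ± 0.20 (adjusted p = 0.19). DESeq2 called it (adjusted p = 0.000336), as did the fit without a filter (adjusted p = 0.000996). Mthfd2 read 9.77, 5.18, 0.282 and 2.65 CPM in YCRRF, below every YCR library but spread widely, and its log2 fold change was -1.89 ± 0.72 (adjusted p = 0.56). Of 15 alternatives 1 called it, the fit without a filter (adjusted p = 0.0074). In this comparison 5.52% of all genes did not overlap. The library at 0.282 CPM, replicate 3, had 4.09% mitochondrial reads beside 1.09 to 1.54% in the other 3, and the part of this in its values was not tested.

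Against YAL, YCRRF had 0% of genes called in edgeR at an adjusted p, beside 52 genes by DESeq2 and 714 genes at an unadjusted p under 0.05, which held 1 member, Asns (0.67 ± 0.24, adjusted p = 1.00). Trib3 differed by 0.07 ± 0.16 (adjusted p = 1.00) and Mthfd2 by -0.56 ± 0.76 (adjusted p = 1.00). No member was called by DESeq2.

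Old and young freely fed mice were compared next. In OAL against YAL 5 of 10 members were called, with 14.8% of all genes called. Ddit4 rose, and Phgdh, Shmt2, Trib3 and Sesn2 fell. The median log2 fold change of the members was -0.38, beside 0.05 for all genes.

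Ddit4 read 13.5, 17.0, 15.7 and 13.6 CPM in OAL and 4.02, 7.18, 3.56 and 3.95 CPM in YAL. Every OAL library lay above every YAL library (27.5% of all genes did not overlap between these groups), with a log2 fold change of 1.68 ± 0.25 (adjusted p = 0.0024), a 3.22-fold rise. Phgdh was at 140 to 157 CPM in OAL and read 301, 309, 250 and 253 CPM in YAL. It fell by 0.91 on the log2 scale (SE 0.09, adjusted p = 0.00017). Both genes were called under all 16 alternatives, Ddit4 between 1.55 and 1.96 and Phgdh between -0.97 and -0.80.

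Trib3 (-0.49 ± 0.11, adjusted p = 0.016), Sesn2 (-0.52 ± 0.12, adjusted p = 0.019) and Shmt2 (-0.54 ± 0.13, adjusted p = 0.022) passed with less margin. Without OAL replicate 1, 2 or 4 only 2 members were called, and with TMM from genes of at least 5 CPM the count was also 2, Ddit4 and Phgdh. That scaling moved the split of all calls from 1620 higher and 1866 lower to 1870 and 784 and the median of all genes from 0.05 to 0.16. Atf4, at 84.8, 72.0, 75.6 and 98.9 CPM in YAL and 63.1 to 71.5 CPM in OAL, was at -0.30 ± 0.11 (adjusted p = 0.085). The groups of Atf4 did not overlap, but the call was missed.

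Slc7a11 was decided by 1 library. It read 0.827, 0.504, 6.24 and 1.10 CPM in YAL and 3.30, 2.47, 3.66 and 3.04 CPM in OAL, with a log2 fold change of 0.52 ± 0.68 (adjusted p = 0.66). Without YAL replicate 3 it was 1.96 ± 0.41 (adjusted p = 0.0125). Reads on receptor genes were at 553 to 788 CPM in OAL and 113 to 229 CPM in YAL without overlap. Detected genes numbered 42071 to 43972 in OAL and 25936 to 28713 in YAL, also without overlap. Age and these differences between libraries cannot be told apart for any gene of this comparison, member or not. Ddit4 and Slc7a11 were in addition low genes in the young libraries.

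The other genes of the pathway were counted from lists that hold no member. Under lifelong CR, where 2.54% of all genes were called higher and 3.03% lower, 2 of 16 tested stress-induced genes fell and none rose. Cebpb, a transcription factor that pairs with ATF4, fell by 0.97 on the log2 scale (SE 0.10, adjusted p = 1.92e-07), near the change of Trib3, and Nupr1, a stress-induced chromatin protein, was at -0.40 ± 0.08 (adjusted p = 0.0020).

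None of the 20 cytosolic aminoacyl-tRNA synthetases, which charge tRNAs, was called in OCR against OAL. Of the amino acid transporters 1 of 10 rose, the cationic transporter Slc7a1 (0.36 ± 0.11, adjusted p = 0.044). Of 23 further serine, glycine and folate genes 3 rose and none fell. Among them were Tyms, which makes thymidylate (0.99 ± 0.11, adjusted p = 2.9e-07), and Shmt1 (0.40 ± 0.10, adjusted p = 0.013), the cytosolic counterpart of Shmt2. The proliferation markers rose in the same comparison, and their part in these 3 calls was not tested. Of 13 eIF2 kinase and eIF2B genes 1 fell, Impact, an inhibitor of the kinase GCN2 (-0.30 ± 0.08, adjusted p = 0.022). Of 8 further mTORC1 inhibitors 1 fell, Sesn1 (-0.29 ± 0.08, adjusted p = 0.032). The counts that rest on 1 gene are not read as results about their lists. With TMM from genes of at least 5 CPM the calls were 2 stress-induced genes, 1 synthetase, 4 transporters, 4 serine, glycine and folate genes, 2 eIF2 genes and 0 further mTORC1 inhibitors.

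On refeeding after lifelong CR, Cebpb rose by 0.64 ± 0.14 (adjusted p = 0.0058), the 1 call among the 16 tested stress-induced genes, where 0.694% of all genes were called higher and 2.71% lower. Of the 23 serine, glycine and folate genes 4 fell, among them Tyms (-1.15 ± 0.15, adjusted p = 1.21e-06) and Shmt1 (-0.82 ± 0.14, adjusted p = 0.00017). Of the 20 synthetases 4 fell, with Aars (-0.52 ± 0.14), Mars (-0.52 ± 0.13) and Farsa (-0.45 ± 0.12) the largest. Of the 10 transporters 2 fell, Slc7a5 (-0.61 ± 0.14, adjusted p = 0.0082) and the glutamine carrier Slc1a5 (-0.52 ± 0.13, adjusted p = 0.011). The proliferation markers fell in the same comparison, and their part in the falls of these lists was not tested. In OCRRF against OAL 5 synthetases, 4 serine, glycine and folate genes and 1 transporter fell and none of the 3 lists had a gene that rose, beside 1.66% of all genes called higher and 2.48% lower. With TMM from genes of at least 5 CPM 2 stress-induced genes, 2 synthetases, 2 transporters and 5 serine, glycine and folate genes were called against OCR, and 0, 0, 1 and 1 against OAL.

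With age, where 6.89% of all genes were called higher and 7.93% lower, 10 of 20 synthetases fell and none rose, Mars at -0.65 ± 0.11 (adjusted p = 0.0040) the largest, with a median of -0.33 for the list. Of the eIF2 genes 5 of 13 fell, among them Eif2ak4, which encodes the amino acid sensing kinase GCN2 (-0.57 ± 0.10, adjusted p = 0.0067). Of the serine, glycine and folate genes 8 of 23 fell, among them Mthfd1l (-0.72 ± 0.11) and Shmt1 (-0.63 ± 0.16), and 2 rose, Cbs (3.11 ± 0.75) and Gldc (1.81 ± 0.55). Of 16 tested stress-induced genes 2 rose, Vldlr (2.71 ± 0.34) and Nupr1 (1.22 ± 0.09), and 2 fell, Ddit3 (-0.44 ± 0.11) and Ppp1r15a (-0.39 ± 0.10). These counts depend on the scaling: with TMM from genes of at least 5 CPM, where 3.33% of all genes were lower, 3 synthetases, 1 eIF2 gene, 7 serine, glycine and folate genes, 2 transporters and 2 stress-induced genes were called. Of the 18 proliferation markers 11 fell in the same comparison, and their part was not tested. None of the genes of these lists was called in YCR against YAL.

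**Figure D3:**
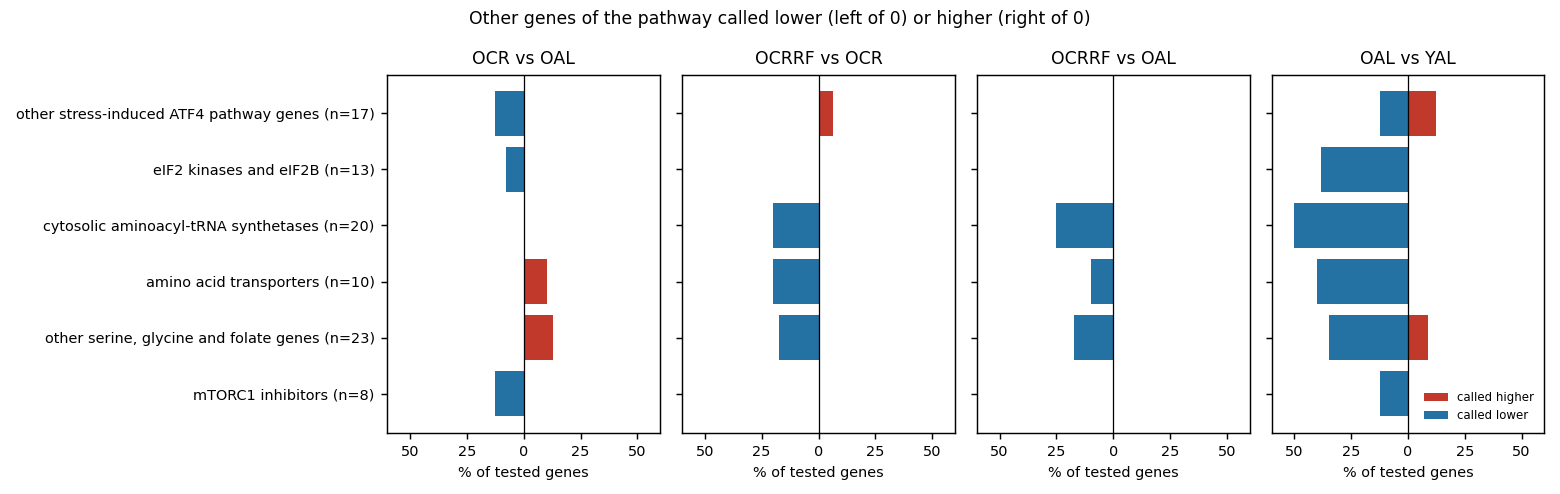
Share of tested genes in 6 other pathway lists (rows, with the number of genes listed) called higher, right of 0, or lower, left of 0, in 4 comparisons (horizontal axes in percent). In OAL against YAL 10 of the 20 synthetases were lower, a count that was 3 with TMM from genes of at least 5 CPM.

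Likeness between members was described in each experiment. After the group means were taken out, 19 of the 45 pairs of members correlated positively over the 22 diet libraries, with a median r of -0.06. The highest was Trib3 with Sesn2 (r = 0.55), then Phgdh with Shmt2 (r = 0.53) and Psat1 with Shmt2 (r = 0.51), and the lowest was Asns with Ddit4 (r = -0.59). In the 12 transplanted libraries 38 of the 45 pairs were positive, with a median r of 0.24 and the highest for Psat1 with Mthfd2 (r = 0.91). All pairs share libraries and depth. Pairs of other genes were not examined, and the difference between the experiments was not tested. The mean standardized level of the members was also taken over the 22 libraries, with the group means left in. Correlations with it therefore also hold the differences between diet and age groups. The 5 genes most like it were Rsl24d1 (r = 0.93), Aatf (0.91), Nelfa (0.90), Prmt5 (0.90) and Emc8 (0.90), out of 12318 genes averaging 5 CPM or more. Each member is itself part of that mean. Among the members, Shmt2 (0.92) and Phgdh (0.83) followed the mean most closely, and Ddit4 (-0.68) and Slc7a11 (-0.46) ran against it.

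Knockdown of Kdr, the VEGF receptor, and of Kdr with the BMP receptor Bmpr1a was examined in transplanted old HSCs. Kdr read 6.04 and 6.07 CPM with scramble and 1.93, 2.21, 3.28 and 2.03 CPM with its shRNA, a log2 fold change of -1.35 ± 0.25 (adjusted p = 0.25). In the double arm Kdr read 3.97 and 4.62 CPM with scramble and 1.24, 0.555, 1.60 and 1.35 CPM with the shRNAs (-1.86 ± 0.37, adjusted p = 0.27). Bmpr1a there read 5.21 and 4.43 CPM with scramble and 4.44, 0.656, 2.22 and 0.595 CPM with the shRNAs (-1.29 ± 0.72, adjusted p = 0.60), so 1 library overlapped its control. The targeted genes themselves missed the adjusted threshold. The 10 neutrophil and monocyte markers summed to 881 to 2186 CPM with scramble and 1204 to 3314 CPM with the Kdr shRNA, and to 2294 to 4327 CPM and 941 to 3122 CPM in the double arm, and these ranges overlapped. Some other measures separated the groups. Cd34 was at 358 to 424 CPM with scramble and 451 to 529 CPM with the Kdr shRNA. In the double arm Cd34 was at 437 to 488 CPM and 539 to 807 CPM. The sort of transplanted HSCs did not select on CD34 or on Flk2, which Flt3 encodes. Cd34 and Flt3 therefore do not mark cells outside that gate, only outside that of the diet libraries. The other genes listed with them did not all follow Cd34. Ly6c2 went the other way in the double arm, at 33.2 to 37.8 CPM with scramble and 1.68 to 16.9 CPM with the shRNAs. Cd48 was higher without overlap in the Kdr arm and overlapped in the double arm, and Flt3 overlapped in both. Of all tested genes 21.9% did not overlap in the Kdr arm and 21.3% in the double arm. In the Kdr arm the proliferation markers summed to 2956 to 3334 CPM with scramble and 3424 to 3986 CPM with the shRNA, with none of 18 called. The HSC markers there summed to 3397 to 3598 CPM with scramble and 2819 to 3211 CPM with the shRNA, the megakaryocyte markers to 463 to 507 CPM and 371 to 406 CPM, and mitochondrial reads made up 0.774 to 0.778% and 0.440 to 0.721%. The part of these in the values of the members was not tested.

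No member was called at an adjusted p in either arm, where 0.0149% and 0.00498% of all genes were called. At an unadjusted p under 0.05 and a fold over 1.2, 3 members differed in each arm, the same 3 genes (Trib3, Ddit4 and Shmt2), all lower, with 6.76% of all genes past that rule in the Kdr arm and 6.71% in the double arm. Each arm has its own scramble controls, but the paper used the same Kdr hairpin in both. The share of all genes past the rule in both arms in the same direction was not counted. The recurrence of these 3 genes is therefore not read as a result.

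Shmt2 read 156 and 151 CPM with scramble and 104, 109, 95.7 and 95.1 CPM with the Kdr shRNA. In the double arm it read 162 and 157 CPM with scramble and 111, 103, 109 and 78.4 CPM with the shRNAs. The groups did not overlap in either arm, as held for 21.9% of all genes in the Kdr arm and 21.3% in the double arm, with log2 fold changes of -0.60 ± 0.08 (adjusted p = 0.13) and -0.66 ± 0.13 (adjusted p = 0.25). DESeq2 called both (adjusted p = 6.12e-07 and 0.000243), and edgeR called the first without Kdr shRNA replicate 2 (adjusted p = 0.0178). Exons of Shmt2 share 32 bases with Ndufa4l2 on the other strand, which lay at 0.0270 to 0.203 CPM in these libraries.

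Ddit4 read 14.0 and 12.5 CPM with scramble and 6.95, 6.69, 7.56 and 5.74 CPM with the Kdr shRNA, a log2 fold change of -0.98 ± 0.17 (adjusted p = 0.19). In the double arm it was at 10.4 and 11.1 CPM against 6.46, 7.83, 6.26 and 5.87 CPM (-0.70 ± 0.18, adjusted p = 0.31). Trib3 overlapped in the Kdr arm, at 24.9 and 33.1 CPM against 18.3, 27.7, 16.1 and 15.8 CPM (-0.57 ± 0.23, adjusted p = 0.53). In the double arm it read 17.4 and 19.9 CPM against 10.5, 14.0, 13.1 and 11.3 CPM (-0.61 ± 0.16, adjusted p = 0.32), with no overlap. DESeq2 called Ddit4 in both arms (adjusted p = 0.000356 and 0.0362) and Trib3 in the double arm (adjusted p = 0.0378).

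Psat1, Mthfd2 and Phgdh were not called in either arm. Psat1 was at 0.01 ± 0.12 and 0.02 ± 0.06, Mthfd2 at 0.14 ± 0.21 and 0.03 ± 0.13, and Phgdh at -0.14 ± 0.08 and -0.10 ± 0.07 on the log2 scale, with adjusted p from 0.63 to 0.98. Phgdh lay below both scramble libraries in the Kdr arm, at 259 to 300 CPM against 304 and 317 CPM. Asns was at 0.26 ± 0.10 in the Kdr arm and -0.29 ± 0.18 in the double arm, and the difference between the arms was -0.55 ± 0.23 (adjusted p = 1.00). No member passed in the test of that difference, where 0% of genes were called in edgeR, 3 genes were called by DESeq2 and 760 were under an unadjusted p of 0.05. Atf4 was at -0.14 ± 0.11 and -0.19 ± 0.07, Sesn2 at 0.15 ± 0.15 and 0.23 ± 0.13, and Slc7a11 at -0.51 ± 0.43 and -0.04 ± 0.38.

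**Figure D4:**
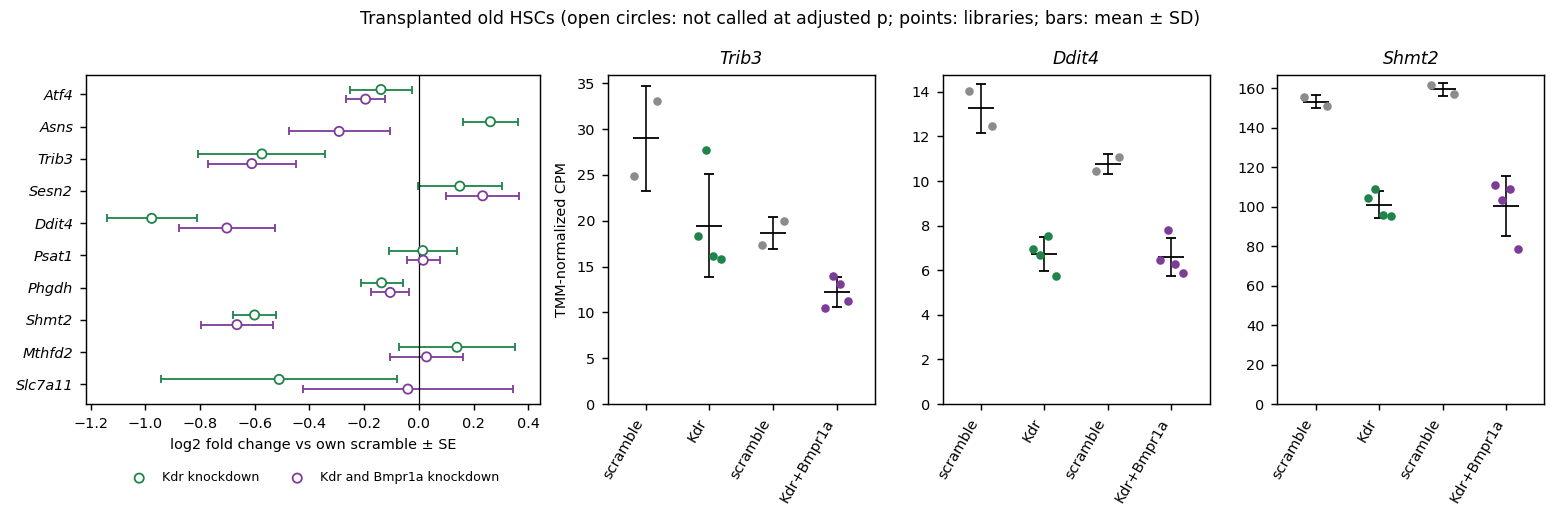
Left, log2 fold change ± SE of each member against its own scramble control in both knockdown arms, all open circles because none was called at an adjusted p. Right, TMM-normalized CPM (from 0) of Trib3, Ddit4 and Shmt2 by library with the mean ± SD. The Ddit4 and Shmt2 libraries with an shRNA lie below all scramble libraries of their arm.

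Chromatin at the promoters was a readout that the choice of genes did not use. In OCRRF against OCR (n = 2 and 4 ATAC-seq libraries, 15721335 to 19558148 counts in peaks), 11 peaks lay within 1000 bases of a start of a member, at least 1 for each. None was called at an adjusted p under 0.05 and a fold over 1.5, with 0.294% of 123372 peaks called, and 2 had an unadjusted p under 0.05, beside 11.7% of all peaks. The peak over the Asns start read 56.8 and 57.7 CPM in OCRRF and 46.8, 44.9, 48.5 and 49.5 CPM in OCR. Its log2 fold change was 0.27 ± 0.07 (adjusted p = 0.070), while Asns mRNA was at -0.32 ± 0.14 in the same comparison. The peak over the Slc7a11 start, which covers the response element letters shown above, was at 0.17 ± 0.08 (adjusted p = 0.39).

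None of the 4 genes called in mRNA had a called peak. The peak at Trib3 was at 0.02 ± 0.08, the peak over the Psat1 start at 0.00 ± 0.06, Mthfd2 at 0.00 ± 0.09 and Phgdh at 0.12 ± 0.07, with adjusted p from 0.55 to 1.00. Accessibility in OAL was not analysed here.

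In OCR the active mark H3K4me3 (n = 2 libraries, signal per base over the 750 bases from the start) was above the median of all genes at 9 of 10 members. Ddit4 (47.2 and 45.7) and Atf4 (44.0 and 48.0) were the highest, at the 95.8th percentile or above, and Slc7a11 (4.70 and 5.06) was the lowest, at the 43.5th and 44.3rd percentile. The repressive mark H3K27me3 (2000 bases from the start) was highest at Mthfd2, with 2.89 and 2.58 per base (90.0th and 89.3rd percentile), and then at Asns, with 0.895 and 1.13. The median over 25127 genes was 0.341 and 0.344, and Atf4 was at 0.0791 and 0.0928, Trib3 at 0.122 and 0.139 and Sesn2 at 0.0985 and 0.186. Mthfd2 and Asns were above the median in both marks and both libraries. Histone marks were read in OCR only, so no comparison between diets was made.

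PU.1, a transcription factor of blood cells, had a called peak within 1000 bases of a start at 1 member, Psat1. The peak (mm10, chr19:15924813-15925126 in OCR) was present in OCR replicate 1, OCRRF replicate 1 and OAL replicate 2, with a fold enrichment of 8.06, 7.22 and 6.26, and was not called in the other 3 libraries. Replicates 1 and 2 used different antibodies, and the libraries held 2262 to 5464 peaks. Of 27025 RefSeq genes 5.54% had a peak in this window in at least 1 library, and 1.75 to 4.44% in each.

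**Figure D5:**
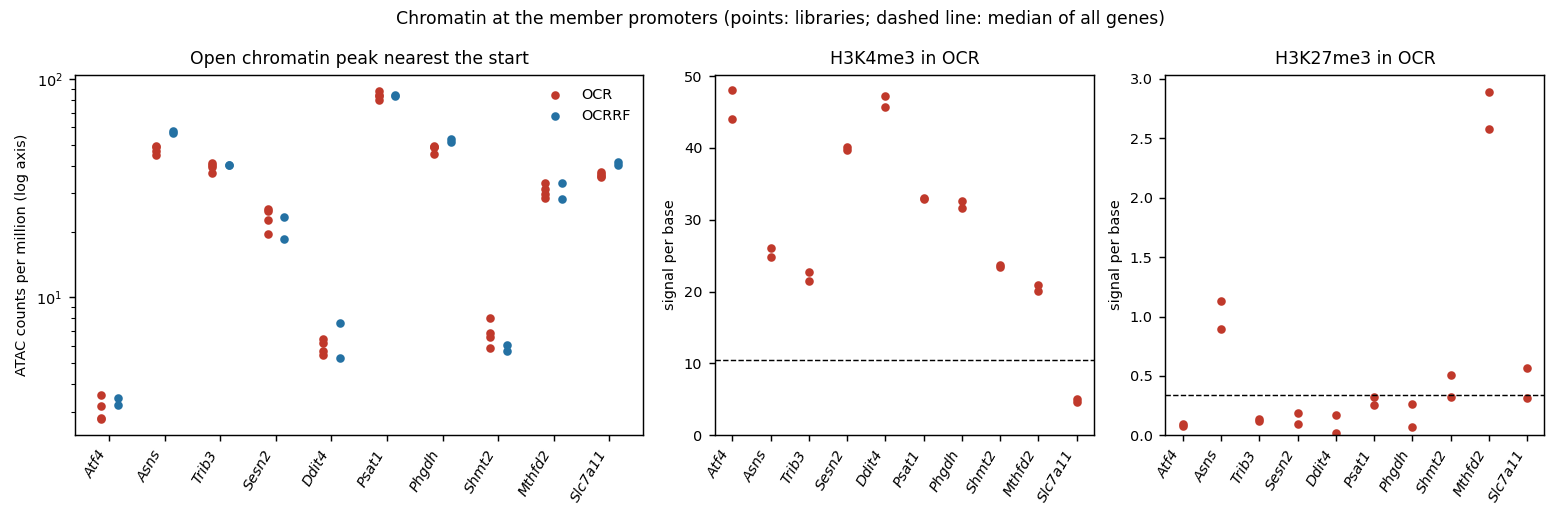
Left, ATAC CPM (log axis) in the open chromatin peak nearest each member's start in 4 OCR and 2 OCRRF libraries. Middle and right, H3K4me3 and H3K27me3 signal per base in 2 OCR libraries with the median of all genes as a dashed line. Slc7a11 lies below the median of H3K4me3, and Mthfd2 and Asns stand above the other members in H3K27me3.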

How the data were processed

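RNA was read from sorted HSCs, and open chromatin (ATAC-seq), 2 histone marks and PU.1 binding (ChIP-seq) from HSCs of old mice. The authors trimmed reads with cutadapt, aligned RNA to mm10 with STAR and deposited raw counts per gene from featureCounts with GENCODE M22. Strand and multi-mapping settings are not given in the sources used here, and the labels and the methods name different RNA library kits. The authors also deposited ATAC counts per consensus peak, histone signal per promoter window, and MACS2 peaks with a fold enrichment ratio and a −log10 q-value per library.

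Counts were tested with edgeR 4.0.16 (filterByExpr, TMM, glmQLFit and glmQLFTest) over all genes of a comparison. Calls needed a Benjamini-Hochberg adjusted p under 0.05 and a fold over 1.2 (1.5 for ATAC peaks). The members and lists were chosen with earlier results of these data known. Named genes were all members, up to 3 called genes per list and direction, the 5 genes most like the members' mean, and the targeted genes. Cd34, Cd48, Flt3, Ly6c2, Kit, Slamf1 and Ndufa4l2 are named where this rule does not reach and were chosen after their values were seen. CPM in the text use TMM factors over the 22 diet or 12 transplanted libraries, and folds come from each comparison's own fit. Values per kb use GENCODE M21 exon lengths. Replicates are separate libraries of a group, and where nothing says that they came from separate animals the p-values measure the spread between these samples. The scripts were tested on simulated data. In comparisons of 4 against 4 libraries same-numbered replicates did not deviate together (correlations from -0.15 to 0.08), so the numbers were not taken as pairs. With a group of 2 libraries the 2 deviations mirror each other, so the correlations there (from -0.26 to 0.22) can neither show nor exclude pairing. No 2 libraries of a group agreed within counting noise (lowest chi-square per degree of freedom 8.17). Alternatives were DESeq2 1.42.0, its size factors, TMM from genes of at least 5 CPM, no filter, at least 10 counts in every library, the adjusted p alone, a replicate block and leaving out each library, and, after the data were seen, library sizes summed after the filter. OAL libraries of ATAC-seq and histone ChIP-seq were not analysed here. Some genes that the naming rule covers are not reported here.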

Additional observations from a re-analysis of the deposited data

Results flagged for a closer look

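Of 70 groups of 4 libraries (10 members in 7 groups), 8 held 1 library whose gap to the nearest of the others was large against the range of the group (Dixon's test), and chance flags about 1 in 20 groups. Among diet libraries these were Atf4 at 125 CPM in YCRRF replicate 3 (others 78.5 to 84.2, in a library with 4.09% mitochondrial reads beside 1.09 to 1.54%), Ddit4 at 7.18 CPM in YAL replicate 2 (others 3.56 to 4.02), Mthfd2 at 10.1 CPM in OCR replicate 2 (others 7.00 to 7.36), Slc7a11 at 6.17 CPM in OCR replicate 3 (others 2.90 to 3.45) and Slc7a11 at 6.24 CPM in YAL replicate 3 (others 0.504 to 1.10). In transplanted HSCs they were Asns at 73.5 CPM in the first shRNA2 library of the double knockdown (others 47.1 to 49.4), Asns at 56.1 CPM in Kdr shRNA replicate 4 (others 66.9 to 67.4) and Atf4 at 67.0 CPM in Kdr shRNA replicate 1 (others 53.5 to 55.5). The call of Mthfd2 in OCR against OAL was lost without OCR replicate 2.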

How the results depend on the processing

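Counts of called members moved with these settings. DESeq2 called 3 in YCR against YAL (main 1), 1 in YCRRF against YCR (main 0), 2 with Kdr knockdown and 3 with the double knockdown (main 0 each). Without a filter 2 were called in YCR against YAL, 2 in YCRRF against YCR and 2 with Kdr knockdown. An unadjusted p gave 3 in each knockdown. TMM from genes of at least 5 CPM gave 1 in OCRRF against OAL (main 3) and 2 in OAL against YAL (main 5), and a minimum of 10 counts gave 1 and 3. Library sizes summed after the filter, chosen after seeing the data, gave 0 in YCR against YAL. The replicate block gave 0 in YCR against YAL, 3 in OCR against OAL (main 4, within 1.5 times), 5 in OCRRF against OCR (main 4) and 2 in OCRRF against OAL, and changed no other count of members. Leaving out 1 library gave 2 to 4 in OCR against OAL, 0 in YCR against YAL, 0 to 5 in OCRRF against OCR, 0 to 1 in OCRRF against OAL, 2 to 7 in OAL against YAL, 0 to 1 with Kdr knockdown and 0 with the double knockdown. Over all genes, DESeq2 called 527 in YCR against YAL (edgeR 68), 2391 in OCRRF against OCR (1110), 4577 in OCRRF against OAL (1316), 378 in YCRRF against YCR (2), 7953 in OAL against YAL (3486), 239 in the difference between ages (9), 261 with Kdr knockdown (3) and 332 with the double knockdown (1). Without a filter 368, 275, 6671 and 2684 genes were called in YCR against YAL, YCRRF against YCR, OAL against YAL and OCRRF against OAL, and with the replicate block 7 in YCR against YAL, 3437 in OCRRF against OCR and 1651 in OAL against YAL. The cause was not tested. No called member changed sign under any alternative run, and no alternative called a member promoter peak. Depth limits Slc7a11 and Mthfd2, which had as few as 14 and 8 counts in a library.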
